A study of Mus musculus with 4 samples.

Results

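The genes described here encode the carriers and enzymes that bring glucose into the cell, convert it to pyruvate, and send the pyruvate either to lactate or to the mitochondrion. They were given as a list of 35 mouse gene symbols, and all 35 were found among the 54920 genes of the count tables. The tables hold RNA-seq of ID4-EGFP+ spermatogonia, germ cells isolated by flow cytometry on a green reporter of *Id4* that enriches for spermatogonial stem cells (SSCs). The cells were collected at postnatal day 8 (P8). Control libraries (n = 2) came from *Cnot3* flox/flox mice that carried the *Id4*-eGfp reporter and no Cre. *Cnot3*-cKO libraries (n = 2) came from *Cnot3* flox/flox mice that carried *Ddx4*-creER together with ID4-EGFP. Both groups had been injected with 4-OHT, the active metabolite of tamoxifen, from postnatal day 1 to day 3. *Ddx4* is a germ cell gene, so the Cre is driven in germ cells and any somatic cell in a library keeps an intact *Cnot3*. The controls received the drug but had no Cre, so effects of Cre itself cannot be told apart from those of the deletion. The study describes its replicates as biological and names more of them than were analysed here, but the labels do not state whether the libraries of a group came from separate animals, and p-values then measure the spread between these libraries, which may be technical.

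Glycolysis begins with glucose uptake through GLUT proteins and phosphorylation by hexokinase, is controlled at phosphofructokinase, and ends with pyruvate kinase. Pyruvate is then reduced by lactate dehydrogenase and exported through monocarboxylate transporters, or oxidized by the pyruvate dehydrogenase complex, which pyruvate dehydrogenase kinases switch off. In the testis, Sertoli cells are known to ferment glucose and pass lactate to germ cells, and SSCs in culture are known to rely on glycolysis.

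The libraries held 40957899 and 43378493 reads in the controls and 22192964 and 28019626 reads in *Cnot3*-cKO, so the mutant libraries were the less deeply sequenced. Levels are given as CPM, the usual read count scaled to a common library size, here after TMM scaling. *Cnot3* (chr7:3645268-3661109 on GRCm38) was counted 2362 and 2114 times in the controls and 435 and 571 times in *Cnot3*-cKO. Its CPM was 58.6 and 50.2 in the controls against 19.2 and 19.9, and both mutant libraries lay below both controls (log2 fold change −1.48, SE 0.13, adjusted p = 1.48e-05, by the quasi-likelihood F test of edgeR, adjusted with Benjamini-Hochberg over 23952 tested genes). Of the 50-base stretches of its longest coding transcript, 32.1% also occur in transcripts of 2 other genes. Such matches, here and below, were counted on either strand. Some of the reads counted in *Cnot3*-cKO may therefore not come from *Cnot3*.

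The pathway moved unevenly. Of the 35 genes, 13 rose in *Cnot3*-cKO at an adjusted p under 0.05, beside 11.1% of all tested genes, and 3 fell, beside 9.46%, shares that also stand as the background of each count of genes that rose or fell in a list below. The genes that rose were *Slc2a3*, *Hk3*, *Pfkl*, *Pfkp*, *Pfkfb4*, *Aldoa*, *Tpi1*, *Pkm*, *Ldha*, *Ldhb*, *Slc16a3*, *Dlat* and *Pdk4*, and the genes that fell were *Slc2a1*, *Hk1* and *Pdk3*. At the study's stricter thresholds (more than 2-fold, adjusted p below 0.01), 5 rose (*Hk3*, *Pfkl*, *Ldhb*, *Slc16a3* and *Pdk4*) where 4.03% of tested genes did, and 0 fell where 0.735% did. The number that rose at these thresholds was 4 without *Cnot3*-cKO replicate 1, where *Pdk4* missed them with a log2 fold change of 1.87, and between 4 and 6 under all alternatives tried. This count of 0 was the same with edgeR and DESeq2, while 4 genes were lower at an unadjusted p under 0.05 in edgeR. The mutant libraries lay above both controls for 18 genes and below both for 8, and the groups overlapped for 9, whereas 30.5% and 28.6% of all tested genes were separated in these directions. The median log2 fold change of the 35 genes was 0.25 with a range from −0.79 to 2.34, against a median of 0.01 over all tested genes. With scaling to pan-germ cell genes in place of TMM, all tested genes had a median of 0.20 and the 35 genes a median of 0.44. All 35 passed the filter on low counts, and the smallest count of any of them in any library was 11 reads.

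**Figure D1:**
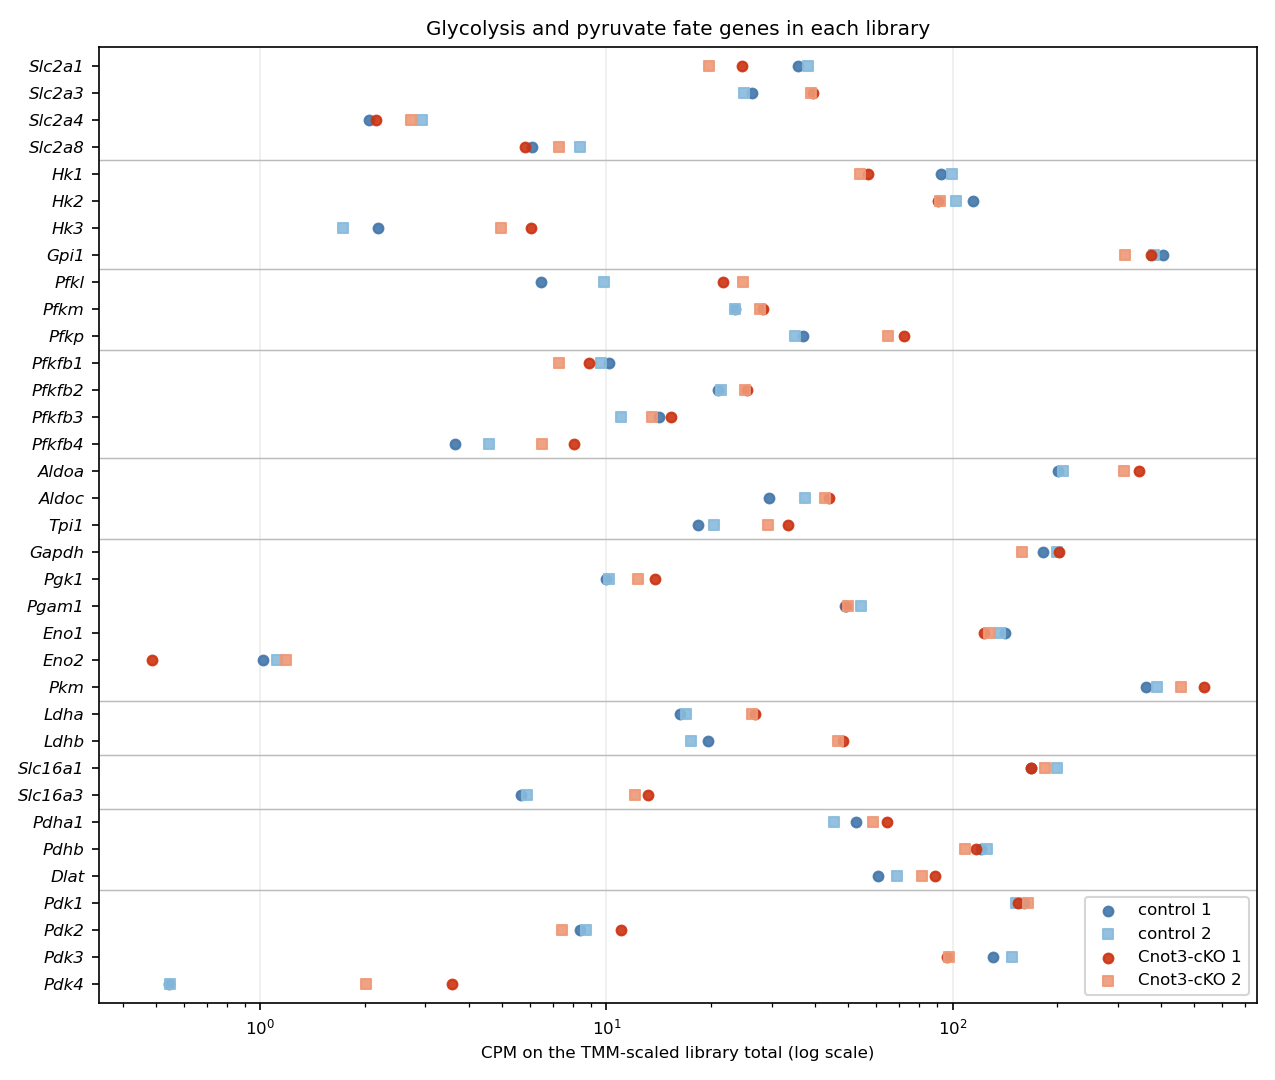
CPM of each of the 35 genes in each of the 4 libraries on a log axis, ordered by step of the pathway, with circles for replicate 1 and squares for replicate 2. The mutant libraries (red and orange) lie above both controls for 18 genes and below both for 8.

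Markers of other testis cells moved with the groups. Of 16 Sertoli cell markers, 14 rose and the others did not pass, and their summed CPM was 511 in each control against 1509 and 1501 in *Cnot3*-cKO. *Clu* was the most abundant of them, with a mean CPM of 148 in the controls and 479 in *Cnot3*-cKO. Of 6 tested Leydig cell markers, 6 rose, and the summed CPM of the list was 376 and 328 against 875 and 929. *Hsd3b1* led that list with means of 267 and 684 CPM, and *Insl3* had 0 reads in all 4 libraries. Of 9 macrophage markers, 8 rose, with sums of 269 and 177 against 593 and 484 CPM, led by *Mrc1* with means of 76.0 and 199 CPM. In these 3 lists both mutant libraries lay above both controls, and the controls differed from each other most for macrophages.

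Other somatic lists held fewer genes that rose, to be set beside the 11.1% of all tested genes. Peritubular myoid cell markers summed to 20 and 24.6 CPM in the controls and 35.9 and 43.5 CPM in *Cnot3*-cKO, with 2 of 7 higher and *Myl9* the most abundant. Endothelial markers summed to 25.9 and 23.2 against 37.7 and 43.6 CPM, with 2 of 6 tested genes higher, *Tek* the most abundant and *Emcn* at 0 in 1 control. Red blood cell markers summed to 8.14 and 7.75 against 10.1 and 19.4 CPM, with 2 of 5 tested genes higher and *Hbb-bs* the most abundant. The part of these cell types in the changes of the glycolysis genes described here was not tested. In bulk libraries, fewer or more cells of a type and less or more RNA per cell cannot be told apart.

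Germ cell identity was also compared. Pan-germ cell genes summed to 8456 and 8979 CPM in the controls and 7436 and 7795 CPM in *Cnot3*-cKO, with 2 of 18 higher and 6 lower (11.1% and 9.46% of all tested genes), and *Dazl* was the most abundant. Of 10 SSC markers 5 rose and 1 fell, and the list summed to 933 and 801 against 878 and 889 CPM, so that its groups overlapped. The gene that fell was *Zbtb16*, the most abundant of the list. It had 436 and 364 CPM in the controls and 243 and 212 CPM in *Cnot3*-cKO (log2 fold change −0.82, SE 0.10). *Id4* itself, the source of the sorted reporter, had 20.6 and 19.7 CPM in the controls and 36.3 and 46.3 CPM in *Cnot3*-cKO. Progenitor markers (5 of 6 lower, led by *Upp1*) summed to 139 and 152 against 81.0 and 81.6 CPM. Differentiating spermatogonia markers (4 of 6 lower, led by *Kit*) summed to 789 and 860 against 581 and 599 CPM. Both of these lists were lower in the mutant libraries, and their part in the results was not tested either.

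**Figure D2:**
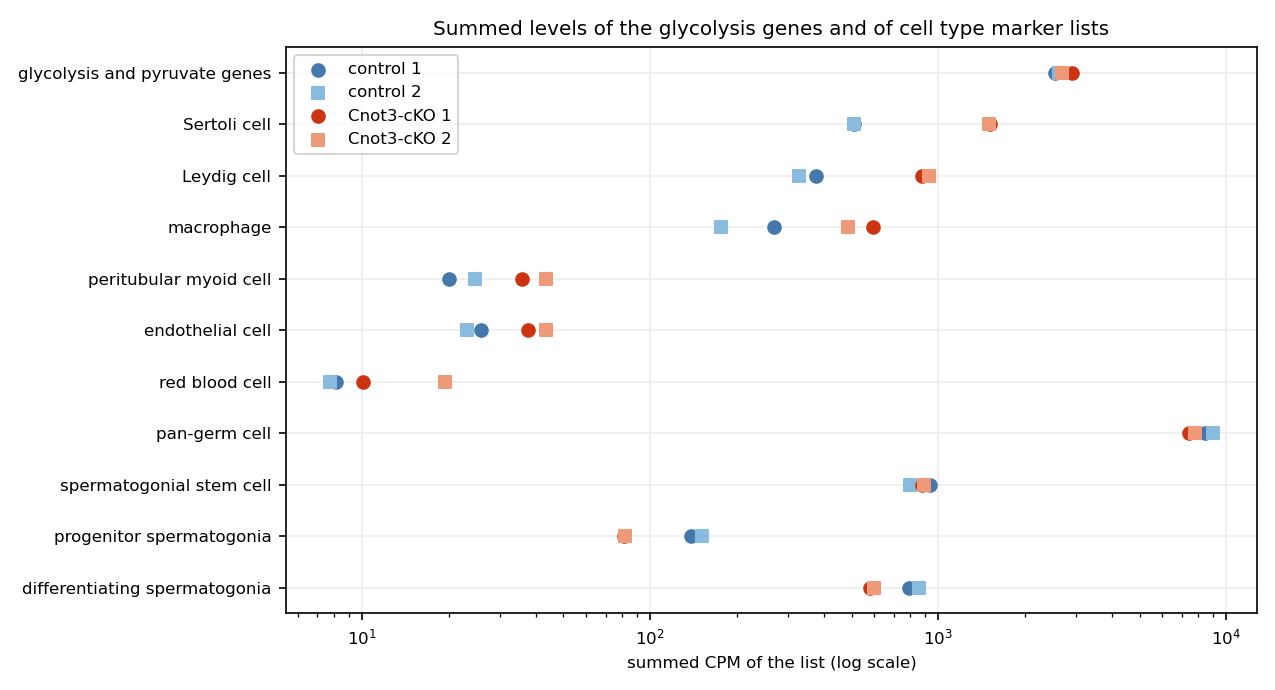
Summed CPM of the glycolysis genes and of each cell type marker list in the 4 libraries, on a log axis. The Sertoli, Leydig and macrophage lists are higher in both *Cnot3*-cKO libraries, while the glycolysis genes sum to 2542 and 2627 CPM in the controls and 2923 and 2689 CPM in *Cnot3*-cKO.

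Among the 4 glucose transporters, 1 gene fell and 1 rose. *Slc2a1* encodes GLUT1, the basal glucose carrier of many tissues, and was measured at 35.7 and 38.2 CPM in the controls and 24.7 and 19.7 CPM in *Cnot3*-cKO. Both mutant libraries lay below both controls, and the gene fell with a log2 fold change of −0.74 (SE 0.14, adjusted p = 0.00327). *Slc2a3*, which encodes the high-affinity carrier GLUT3, had 26.4 and 25.1 CPM in the controls and 39.6 and 38.9 CPM in *Cnot3*-cKO. Here the mutant libraries were the high ones and did not overlap the controls (log2 fold change 0.61, SE 0.12, adjusted p = 0.00413). *Slc2a4*, the insulin-responsive carrier GLUT4, and *Slc2a8*, the intracellular carrier GLUT8, did not pass, with log2 fold changes of −0.02 and −0.14 and overlapping groups. *Slc2a1* and *Slc2a3* together with these 2 genes summed to 70.3 and 74.6 CPM in the controls and 72.3 and 68.7 CPM in *Cnot3*-cKO, so the groups overlapped for the sum.

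As a share of the reads of the 4 transporter genes, *Slc2a1* made up 50.9% (95% Wilson interval 49.0 to 52.7) and 51.3% (49.5 to 53.0) in the controls. In *Cnot3*-cKO its share was 34.1% (31.9 to 36.5) and 28.7% (26.8 to 30.8). The share of *Slc2a3* was 37.6% and 33.6% in the controls and 54.8% and 56.7% in *Cnot3*-cKO, so *Slc2a1* had the larger read share in both controls and *Slc2a3* in both mutant libraries. Read shares depend on transcript length: per kilobase of annotated exon the mean share of *Slc2a3* was 20.9% in the controls and 37.4% in *Cnot3*-cKO, and that of *Slc2a1* was 61.8% and 43.6%. With the longest coding transcript as the length, an alternative chosen after seeing the data, *Slc2a1* had the higher mean in the controls (11.3 against 6.50 CPM per kilobase) and *Slc2a3* in *Cnot3*-cKO (9.92 against 6.81), so which gene led in the mutants depended on the length used. Intervals here and below cover counting error only.

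**Figure D3:**
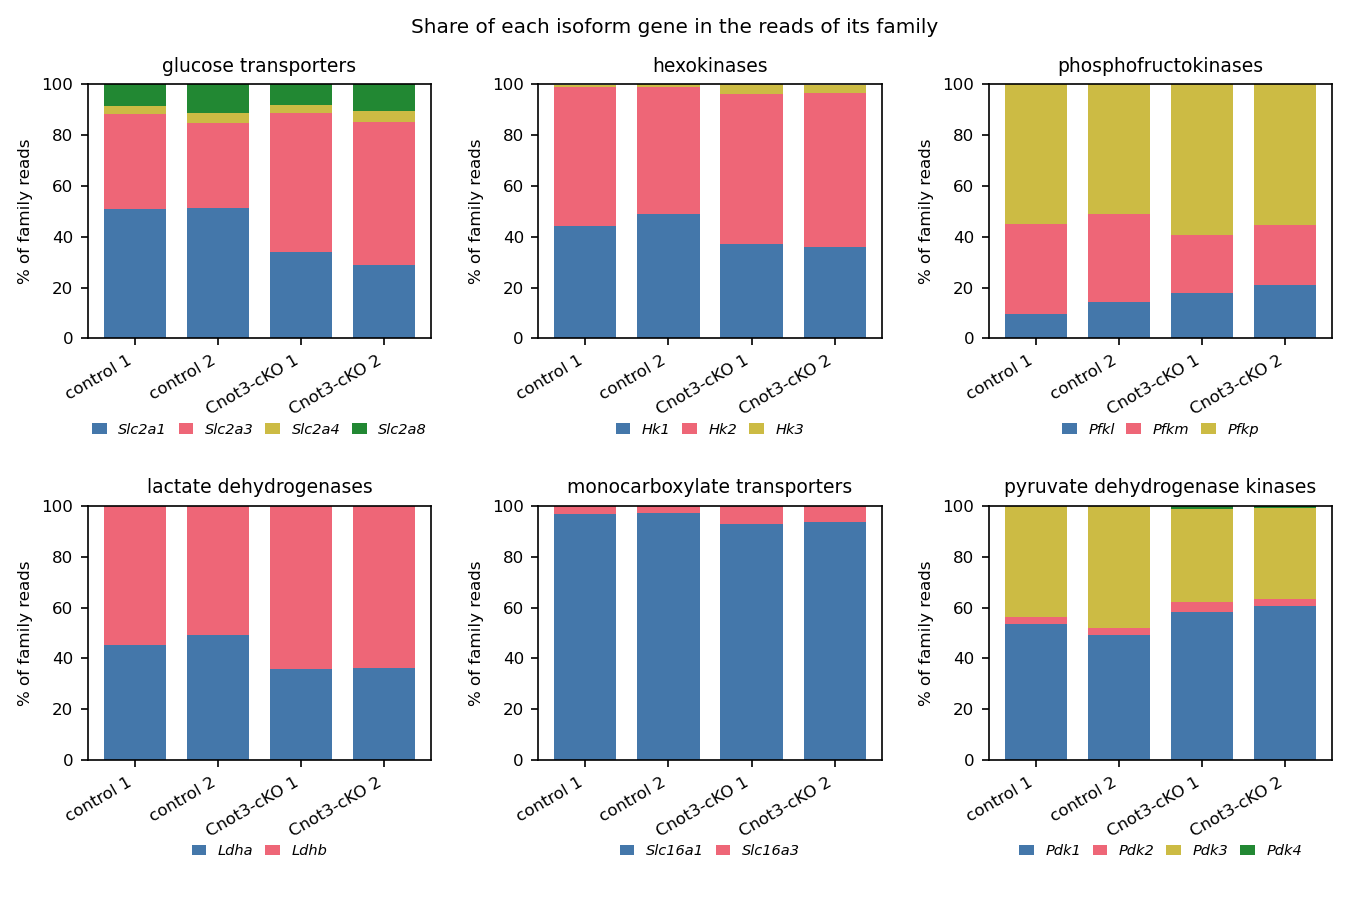
Share of each gene in the reads of its family, in percent, for 6 families in the 4 libraries (stacked bars that add to 100). *Slc2a3*, *Hk3*, *Pfkl*, *Ldhb*, *Slc16a3* and *Pdk4* take a larger share in both *Cnot3*-cKO libraries than in either control. So do *Hk2*, *Pfkp* and *Pdk1*, although the levels of *Hk2* and *Pdk1* did not rise at an adjusted p under 0.05.

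Hexokinases trap glucose as glucose 6-phosphate. *Hk1*, the broadly expressed isoform that binds mitochondria, had 92.9 and 99.9 CPM in the controls and 57.0 and 54.2 CPM in *Cnot3*-cKO. Both mutant libraries were low, and *Hk1* fell with a log2 fold change of −0.79 (SE 0.10, adjusted p = 0.000191). *Hk2*, the inducible isoform of muscle, fat and many tumours, was measured at 115 and 102 CPM in the controls and 91.1 and 92.0 CPM in *Cnot3*-cKO. The groups did not overlap, but *Hk2* did not pass (log2 fold change −0.25, SE 0.09, adjusted p = 0.0871), and without control replicate 2 it did, at −0.34. *Hk3*, an isoform best known from myeloid blood cells, had 2.18 and 1.74 CPM in the controls and 6.05 and 4.96 CPM in *Cnot3*-cKO. Its counts of 88 and 73 against 137 and 142 reads were low, and the gene rose with a log2 fold change of 1.49 (SE 0.28, adjusted p = 0.00283), with both mutant libraries above both controls.

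*Hk1* provided 44.3% (95% Wilson interval 43.2 to 45.3) and 48.9% (47.9 to 50) of hexokinase reads in the controls, and 37.0% (35.4 to 38.6) and 35.8% (34.4 to 37.3) in *Cnot3*-cKO. *Hk2* provided 54.7% and 50.2% in the controls and 59.1% and 60.9% in *Cnot3*-cKO, and it had the most reads of the family in all 4 libraries. Per kilobase of exon, *Hk2* also had the larger mean share in both groups. It was 60.6% against 37.7% for *Hk1* in the controls, and 65.7% against 27.9% in *Cnot3*-cKO. Per kilobase of the longest coding transcript, *Hk1* lay above *Hk2* in the controls (means of 22.5 against 19.7 CPM) and below it in *Cnot3*-cKO (13.0 against 16.6 CPM). Which gene led in the controls therefore depended on the length used. *Gpi1*, the isomerase that follows hexokinase, was counted at 407 and 383 CPM in the controls and 376 and 316 CPM in *Cnot3*-cKO. Its groups did not overlap, and the change did not pass (log2 fold change −0.19, SE 0.09, adjusted p = 0.171). The log2 fold change of *Gpi1* was −0.25 without control replicate 2 and −0.33 without *Cnot3*-cKO replicate 1. Without *Cnot3*-cKO replicate 2 it was only −0.077.

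All 3 phosphofructokinase genes, which commit sugar to glycolysis, had higher values in both mutant libraries than in either control, as did 30.5% of all tested genes. *Pfkl*, the liver-type subunit, had 6.46 and 9.84 CPM in the controls and 21.7 and 24.8 CPM in *Cnot3*-cKO. The controls were the low libraries and differed from each other by less than the gap to the mutants (log2 fold change 1.51, SE 0.20, adjusted p = 0.000338). *Pfkp*, the platelet-type subunit, had 36.9 and 35.0 CPM against 72.3 and 65.0 CPM. It rose with a log2 fold change of 0.93 (SE 0.11, adjusted p = 0.000133), and the groups were apart. *Pfkm*, the muscle-type subunit, ranged from 23.6 to 28.3 CPM over the 4 libraries and did not pass (log2 fold change 0.25, SE 0.13, adjusted p = 0.217). *Pfkp* held over 50% of the phosphofructokinase reads in each library, while the share of *Pfkl* was 9.64% and 14.4% in the controls and 17.7% and 21.1% in *Cnot3*-cKO. The share of *Pfkm* was 35.2% and 34.5% in the controls and 23.1% and 23.6% in *Cnot3*-cKO. Per kilobase of exon, *Pfkm* had the largest mean share in both groups, at 64.4% and 49.4%, but per kilobase of the longest coding transcript *Pfkp* lay above *Pfkm*, at means of 8.67 against 8.19 CPM in the controls and 16.6 against 9.73 CPM in *Cnot3*-cKO. Of the 50-base stretches of the longest coding *Pfkp* transcript, 17.1% match transcripts of the overlapping gene *Pitrm1* on either strand. How strand was used in counting is not stated, so some reads there may not be assigned to either gene with certainty.

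PFKFB enzymes make and break fructose 2,6-bisphosphate, the strongest activator of phosphofructokinase. *Pfkfb4* was measured at 3.65 and 4.59 CPM in the controls and 8.03 and 6.49 CPM in *Cnot3*-cKO, on 147 to 193 reads per library. The groups did not overlap and the gene rose (log2 fold change 0.81, SE 0.24, adjusted p = 0.0311), but this call rested on single libraries: it was lost without control replicate 1, at 0.64, and without *Cnot3*-cKO replicate 1, at 0.65. *Pfkfb1*, *Pfkfb2* and *Pfkfb3*, the isoforms first described in liver or muscle, heart and placenta or brain, did not pass, with log2 fold changes of −0.30, 0.25 and 0.20 and between 202 and 904 reads per library.

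In the middle of the pathway, 2 of the 3 genes that split and interconvert triose phosphates rose. *Aldoa*, the main aldolase of most tissues, was counted at 201 and 209 CPM in the controls and 347 and 312 CPM in *Cnot3*-cKO. Both mutant libraries were far above the controls relative to the gap within each group (log2 fold change 0.68, SE 0.08, adjusted p = 0.000187). *Tpi1*, which interconverts the 2 triose phosphates, had 18.4 and 20.4 CPM against 33.5 and 29.3 CPM. It rose by a similar size, with a log2 fold change of 0.69 (SE 0.14, adjusted p = 0.00453) and no overlap. *Aldoc*, the aldolase typical of brain, had a log2 fold change of 0.37 and did not pass (SE 0.13, adjusted p = 0.0682), while it passed without control replicate 2, at 0.54, and with the replicate number as a block, at 0.38. Without control replicate 1 its log2 fold change was 0.20 and did not pass.

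The enzymes from *Gapdh* to *Eno1* did not pass, while pyruvate kinase did. *Gapdh*, which makes the NADH of glycolysis, had 182 and 200 CPM in the controls and 203 and 159 CPM in *Cnot3*-cKO. The 2 mutant libraries were the highest and the lowest of the 4, and the groups overlapped (log2 fold change −0.08, SE 0.11, adjusted p = 0.676). *Eno1*, the main enolase, was at 142 and 137 CPM in the controls and 123 and 128 CPM in *Cnot3*-cKO. Its groups were apart but the change did not pass (log2 fold change −0.15, SE 0.09, adjusted p = 0.250). *Pgk1*, the first ATP-making enzyme of the pathway, *Pgam1*, a phosphoglycerate mutase, and *Eno2*, the enolase typical of neurons, had log2 fold changes of 0.38, −0.06 and −0.33 and did not pass. *Eno2* was near the lower end of the range measured, with 11 to 47 reads. *Pkm*, which encodes the pyruvate kinases M1 and M2, had 361 and 389 CPM in the controls and 534 and 457 CPM in *Cnot3*-cKO. Both mutant libraries were higher, and *Pkm* rose with a log2 fold change of 0.40 (SE 0.09, adjusted p = 0.00732). That call was lost without *Cnot3*-cKO replicate 1, where the log2 fold change was 0.28. The tables count genes, so the M1 and M2 transcripts could not be separated.

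**Figure D4:**
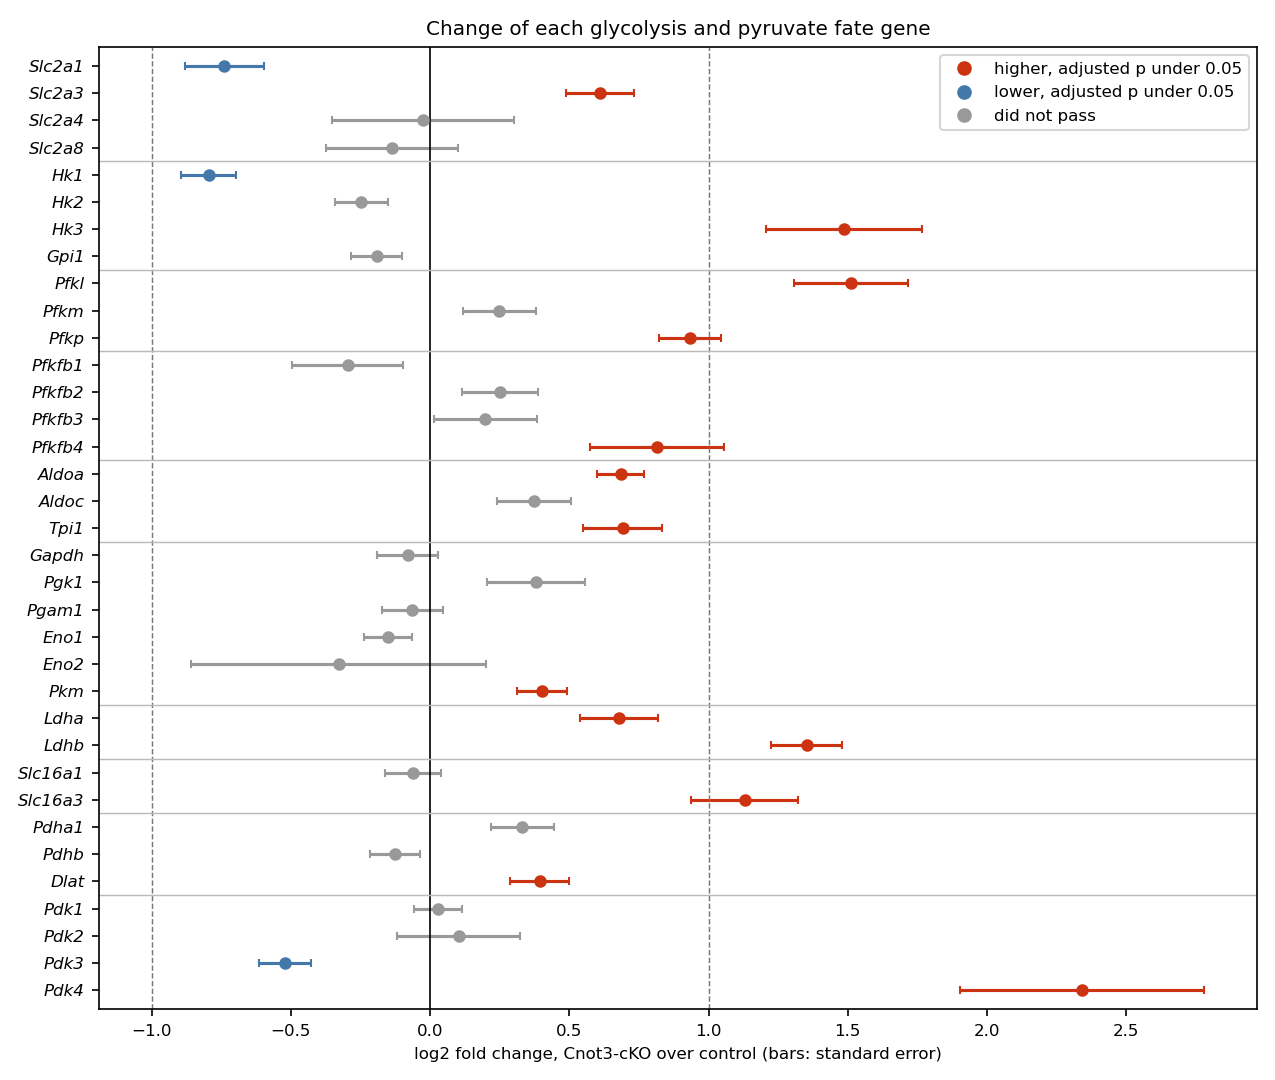
Log2 fold change of each gene in *Cnot3*-cKO over control with its standard error, in pathway order, red for genes that rose and blue for genes that fell at an adjusted p under 0.05, grey for genes that did not pass. Dashed lines mark a 2-fold change. Red marks 13 genes and blue marks *Slc2a1*, *Hk1* and *Pdk3*, while the grey points include *Gpi1* and the enzymes from *Gapdh* to *Eno2*.

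Counts of several of these enzymes carry an uncertainty from sequence shared with other genes, for many of them pseudogenes. Of the 50-base stretches of the longest coding *Gapdh* transcript, 82.5% also occur in transcripts of other genes, 213 of which are annotated pseudogenes. The corresponding shares were 72.2% for *Eno1*, 68.0% for *Pgk1*, 41.5% for *Pgam1*, 34.4% for *Pkm*, 30.3% for *Pdhb*, 27.0% for *Ldhb*, 25.3% for *Gpi1* and 25.1% for *Pfkfb2*, and 0% for genes such as *Hk2*, *Hk3*, *Slc2a3*, *Slc16a1*, *Slc16a3*, *Dlat* and *Pdk3*. How reads that match several genes were counted is not stated, so levels of the first group may be too low or too high. *Pgk1*, with 9.98 and 10.1 CPM in the controls and 13.9 and 12.4 CPM in *Cnot3*-cKO, is among them.

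Both lactate dehydrogenase genes rose. *Ldhb*, the heart-type subunit, had 19.7 and 17.6 CPM in the controls and 48.3 and 46.7 CPM in *Cnot3*-cKO. The replicates of each group were close and the groups far apart (log2 fold change 1.35, SE 0.13, adjusted p = 2.64e-05, the smallest among the 35 genes). *Gm5514*, the only other gene with 50-base stretches of the *Ldhb* transcript, had 101 and 92 reads in the controls and 145 and 231 reads in *Cnot3*-cKO, beside 792 and 739 against 1095 and 1338 reads for *Ldhb*. *Ldha*, the muscle-type subunit, had 16.3 and 16.9 CPM in the controls and 26.9 and 26.3 CPM in *Cnot3*-cKO. It too was higher in both mutant libraries (log2 fold change 0.68, SE 0.14, adjusted p = 0.00482). Of its 50-base stretches, 16.6% also occur in transcripts of other genes, 14 annotated pseudogenes, so the read shares of the pair carry this uncertainty on both sides. The difference between the fold changes of *Ldhb* and *Ldha* was not tested. *Ldhb* made up 54.7% (95% Wilson interval 52.2 to 57.3) and 50.9% (48.3 to 53.5) of the reads of the pair in the controls. In *Cnot3*-cKO its share was 64.3% (62.0 to 66.5) and 64.0% (61.9 to 66.0), above both controls, and per kilobase of exon the mean share was 70.2% and 79.0%.

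Lactate and pyruvate cross the membrane through monocarboxylate transporters. *Slc16a1* (MCT1), which carries them in both directions, had 168 and 201 CPM in the controls and 168 and 186 CPM in *Cnot3*-cKO. The groups overlapped and the gene did not pass (log2 fold change −0.06, SE 0.10, adjusted p = 0.733). *Slc16a3* (MCT4), the exporter of strongly glycolytic cells, had 5.66 and 5.89 CPM against 13.2 and 12.1 CPM. Both mutant libraries were high, and it rose with a log2 fold change of 1.13 (SE 0.19, adjusted p = 0.00151). Its share of the reads of the pair was 3.25% and 2.85% in the controls and 7.28% and 6.13% in *Cnot3*-cKO, so *Slc16a1* remained the main transporter gene by reads in each library.

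Promoters of *Ldha*, *Ldhb* and *Slc16a3*, which rose, and of *Slc2a1* and *Pdk3*, which fell, are shown as examples of genes that moved in opposite directions, picked after their values were seen. They are RefSeq sequences on GRCm38.p6, 250 bases before to 50 bases after an annotated start, given in the direction of the gene. Capitals mark ACGTG on either strand, one of the forms of the hypoxia response element core, which also lies within the E-box CACGTG. The other form, GCGTG, was counted but is not in capitals. *Ldha* lies at chr7:46845554-46845853 (plus strand), *Ldhb* at chr6:142507908-142508207 (minus strand), *Slc16a3* at chr11:120948817-120949116 (plus strand), *Slc2a1* at chr4:119108495-119108794 (plus strand) and *Pdk3* at chrX:93832101-93832400 (minus strand).
*Ldha*: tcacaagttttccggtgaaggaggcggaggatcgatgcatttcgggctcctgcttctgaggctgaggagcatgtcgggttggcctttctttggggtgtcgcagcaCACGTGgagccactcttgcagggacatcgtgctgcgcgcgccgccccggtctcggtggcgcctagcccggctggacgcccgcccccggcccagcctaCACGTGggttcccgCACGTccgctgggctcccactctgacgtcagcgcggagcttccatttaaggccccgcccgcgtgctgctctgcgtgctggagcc
*Ldhb*: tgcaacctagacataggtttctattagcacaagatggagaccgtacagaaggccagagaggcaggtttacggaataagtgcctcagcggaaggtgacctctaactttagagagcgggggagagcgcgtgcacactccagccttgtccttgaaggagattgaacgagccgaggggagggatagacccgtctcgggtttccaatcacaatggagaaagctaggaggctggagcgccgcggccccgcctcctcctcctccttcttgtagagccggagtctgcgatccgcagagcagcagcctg
*Slc16a3*: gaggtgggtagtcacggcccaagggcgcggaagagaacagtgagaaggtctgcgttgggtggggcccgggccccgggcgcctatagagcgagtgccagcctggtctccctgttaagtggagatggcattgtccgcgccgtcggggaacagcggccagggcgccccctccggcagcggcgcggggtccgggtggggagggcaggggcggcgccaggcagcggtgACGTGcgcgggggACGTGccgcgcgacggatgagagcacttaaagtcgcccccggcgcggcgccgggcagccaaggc
*Slc2a1*: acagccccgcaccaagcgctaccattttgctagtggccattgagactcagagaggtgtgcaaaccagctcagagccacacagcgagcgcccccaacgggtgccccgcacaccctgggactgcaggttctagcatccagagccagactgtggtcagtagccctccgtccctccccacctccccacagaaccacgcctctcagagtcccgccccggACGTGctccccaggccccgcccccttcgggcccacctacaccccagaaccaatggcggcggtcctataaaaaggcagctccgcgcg
*Pdk3*: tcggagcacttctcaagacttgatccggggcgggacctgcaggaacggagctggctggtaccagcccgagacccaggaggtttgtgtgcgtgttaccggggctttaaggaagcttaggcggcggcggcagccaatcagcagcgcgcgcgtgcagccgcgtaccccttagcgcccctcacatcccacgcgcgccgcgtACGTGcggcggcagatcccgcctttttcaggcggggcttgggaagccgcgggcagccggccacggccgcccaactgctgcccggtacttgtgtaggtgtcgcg
The *Ldha* window shown, the first of 2 listed for this gene, holds 2 copies of CACGTG and a further single core, *Slc16a3* holds 2 cores, *Slc2a1* and *Pdk3* hold 1 each, and *Ldhb* holds no ACGTG in this window but 1 GCGTG. The other *Ldha* window, at chr7:46846832-46847131 (plus strand), holds no ACGTG and 2 copies of GCGTG. Of the genes not shown, *Hk1*, which also fell, has a window without ACGTG and one with 2 copies, and *Slc16a1*, which did not pass, has 3 matches when each strand of a CACGTG is counted. RefSeq windows were found for 33 of the 35 genes, 52 windows in all, and 23 of them (44.2%) held ACGTG, against 19.6% of 32851 windows of all genes. With either form, a count added after seeing the data, the shares were 75% and 43.8%. ACGTG was in 6 of 16 windows of genes that rose, 3 of 4 of genes that fell and 14 of 32 of genes that did not pass. These counts are of windows, not genes, and windows of the same gene can overlap. The *Aldoa* windows that held ACGTG overlapped and shared the same site. With either form, the share was 75% for genes that rose, for genes that fell and for genes that did not pass. The windows of the 35 genes were richer in G and C, with a median of 60.5% against 52.7%, and held a median of 17.5 CpG pairs against 7, and the shares were not compared at equal base composition. A match of letters is a description of the sequence and does not show that a factor binds.

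The pyruvate dehydrogenase complex turns pyruvate into acetyl-CoA. *Dlat*, its acetyltransferase core, had 60.9 and 69.0 CPM in the controls and 88.9 and 81.8 CPM in *Cnot3*-cKO. Both mutant libraries were higher and *Dlat* rose (log2 fold change 0.39, SE 0.10, adjusted p = 0.0186), but without *Cnot3*-cKO replicate 1 the call was lost, at 0.32. *Pdhb*, the beta subunit of its first enzyme, had 121 and 126 CPM against 117 and 109 CPM. These groups were apart by a narrow gap and did not pass (log2 fold change −0.13, SE 0.09, adjusted p = 0.367). *Pdha1*, the alpha subunit, ranged from 45.6 to 64.5 CPM with both mutant libraries above the controls, and missed the threshold (log2 fold change 0.33, SE 0.11, adjusted p = 0.0585). It passed without control replicate 1, at 0.42, and with the replicate number as a block, at 0.33, and did not without control replicate 2, at 0.22. Of its 50-base stretches, 16.9% occur in transcripts of other genes, among them the overlapping *Map3k15*.

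Of the 4 kinases that inhibit this complex, 1 fell and 1 rose. *Pdk3* had 131 and 148 CPM in the controls and 96.6 and 97.7 CPM in *Cnot3*-cKO. Both mutant libraries were low and close to each other, and *Pdk3* fell (log2 fold change −0.52, SE 0.09, adjusted p = 0.00222). *Pdk4*, the isoform induced by fasting and glucocorticoids, had 0.546 and 0.547 CPM in the controls and 3.58 and 2.03 CPM in *Cnot3*-cKO. These values rest on 22 and 23 reads against 81 and 58 reads, the mutant libraries were both higher, and its log2 fold change of 2.34 (SE 0.44, adjusted p = 0.0027) was the largest of the 35 genes. *Pdk1*, a kinase known as a hypoxia target, was at 161 and 153 CPM in the controls and 155 and 165 CPM in *Cnot3*-cKO. The groups overlapped and it did not pass (log2 fold change 0.03, SE 0.09, adjusted p = 0.867), and neither did *Pdk2*, at 0.10. *Pdk3* held 43.5% (95% Wilson interval 42.6 to 44.3) and 47.8% (47.0 to 48.7) of the kinase reads in the controls and 36.3% (35.1 to 37.6) and 35.9% (34.9 to 37.0) in *Cnot3*-cKO. *Pdk4* stayed a minor gene, at 0.182% and 0.176% in the controls and 1.34% and 0.744% in *Cnot3*-cKO. Of the 35 genes 4 are X-linked (*Pfkfb1*, *Pgk1*, *Pdha1* and *Pdk3*), and *Pdk3* was the only one of them that passed.

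Levels were compared between genes per kilobase of annotated exon. In the controls the order was led by *Pkm* at a mean of 75 ± 3.9 CPM per kilobase (SD, n = 2), *Gpi1* at 61.2 ± 2.6, *Aldoa* at 55.3 ± 1.5, *Pdk3* at 54.4 ± 4.9 and *Gapdh* at 46.3 ± 3.0. *Aldoa* and *Pdk3* did not differ beyond their spread. In *Cnot3*-cKO the means were 99.2 ± 10.9 for *Pkm*, 88.8 ± 6.6 for *Aldoa*, 53.6 ± 6.6 for *Gpi1*, 43.8 ± 7.5 for *Gapdh*, 40 ± 2.8 for *Slc16a1* and 37.9 ± 0.3 for *Pdk3*. The ranges of *Pkm* and *Aldoa* overlapped there, as did those of *Gpi1* and *Gapdh*. Within each mutant library, however, *Pkm* lay above *Aldoa* (107 against 93.5, and 91.5 against 84.1 CPM per kilobase). *Gpi1* likewise lay above *Gapdh* (58.2 against 49.1, and 48.9 against 38.5). *Gapdh*, *Slc16a1* and *Pdk3* did not differ beyond their spread. *Ldhb* moved from position 14 to position 7 in this order and *Hk1* from 15 to 19. With the length of the longest coding transcript in place of annotated exon, *Pkm*, *Gpi1*, *Gapdh* and *Aldoa* led the controls and *Pdk3* stood at position 7, and in *Cnot3*-cKO *Aldoa* (mean 213 CPM per kilobase) stood above *Pkm* (204). The level order therefore depends on the length used. The symbol *Aldoa* covers 2 neighbouring gene models in the annotation, and its reads could not be divided between them.

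Other genes of glucose and pyruvate metabolism were examined as lists, to be read beside the 11.1% of all tested genes that rose and the 9.46% that fell. Of 32 tested further genes of glycolysis, gluconeogenesis and pyruvate handling, 2 rose and 3 fell, with a median log2 fold change of −0.05. Those that rose were *Slc16a7*, the high-affinity pyruvate carrier MCT2, at 1.29 (SE 0.35, adjusted p = 0.0196), and *Eno3*, the muscle enolase, at 0.68 (SE 0.14, adjusted p = 0.00409). Those that fell were *Pdpr*, a regulator of the phosphatase that reactivates pyruvate dehydrogenase, at −0.69 (SE 0.09, adjusted p = 0.00024), *Bsg*, the chaperone that brings MCT1 and MCT4 to the membrane, at −0.48 (SE 0.11, adjusted p = 0.00747), and the ADP-dependent glucokinase *Adpgk* at −0.42 (SE 0.11, adjusted p = 0.0151). *Pdpr* had 210 and 189 CPM in the controls and 122 and 126 CPM in *Cnot3*-cKO, so it was lower in both mutant libraries. Of 6 tested germ cell isoforms, which replace somatic enzymes during sperm formation, 1 rose and the others did not pass, with a median of 0.32. That gene was *Ldhc*, the testis lactate dehydrogenase, with 1.49 and 1.90 CPM against 5.78 and 4.71 CPM (log2 fold change 1.62, SE 0.29, adjusted p = 0.00203).

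In the pentose phosphate pathway, which branches off after hexokinase, 1 of 7 genes rose and 1 fell. *Tkt*, the transketolase that returns pentoses to glycolysis, had 28 and 32 CPM in the controls and 69.6 and 72.5 CPM in *Cnot3*-cKO. It was higher in both mutant libraries (log2 fold change 1.24, SE 0.11, adjusted p = 2.08e-05), whereas the ribose isomerase *Rpia* fell (−0.44, SE 0.10, adjusted p = 0.00643), and the median of the list was −0.04. In the tricarboxylic acid cycle, which takes up acetyl-CoA, 2 of 16 genes fell and the others did not pass, with a median of −0.07, a share near the 9.46% of all tested genes that fell. The genes that fell were *Ogdh*, a subunit of the oxoglutarate dehydrogenase complex, at −0.56 (SE 0.09, adjusted p = 0.000708), and the malate dehydrogenase *Mdh2* at −0.44 (SE 0.09, adjusted p = 0.00551). The differences between these lists and the 35 genes were not tested.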

How the data were processed

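RNA-seq of 2 control and 2 *Cnot3*-cKO libraries from sorted ID4-EGFP+ spermatogonia was used. The authors made stranded total RNA libraries, filtered reads by quality, aligned them to mm10 with STAR, and deposited whole-number counts per gene symbol from featureCounts on GENCODE M24. Settings for strand and for multi-mapping reads are not stated. Counts were tested in edgeR 4.0.16 (R 4.3.3) with TMM scaling, its default expression filter and the quasi-likelihood F test, without covariates, with Benjamini-Hochberg adjustment over 23952 genes. Passing means an adjusted p under 0.05. The test was tested on simulated data. Exon lengths, 50-base stretches and gene positions come from GENCODE M21 on GRCm38, the same assembly, and promoters from RefSeq. Genes with an adjusted p under 0.05 or an average log2 CPM of at least 6 are given in every library, the other listed genes by range or fold change, and for further lists at most 3 passing genes per direction, unless marked as named after their values were seen. The genes and lists were chosen with earlier results of these data known. Alternatives were RLE size factors, library size only, scaling to pan-germ cell genes, no filter, DESeq2 1.42.0, a replicate block, and leaving out each library. Groups of 2 allow no exact two-sided p below 0.333 for a single value. Some genes of the further lists are not reported here.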

Additional observations from a re-analysis of the deposited data

How the results depend on the processing

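Counts of genes higher and lower at an adjusted p under 0.05 (13 and 3) were 13 and 3 with RLE size factors, without a filter and with DESeq2, 15 and 3 with library size only, and 18 and 3 when scaled to pan-germ cell genes. *Aldoc* and *Pdha1* were added in both of these, and *Pfkm*, *Pfkfb2* and *Pgk1* in the last. Leaving out each library gave 10 to 14 higher and 3 to 5 lower, the 5 without control replicate 2, where *Hk2* and *Gpi1* also passed. A lone library was then assumed to vary like the other group. With the replicate number as a block, 15 rose and 3 fell (median 0.25), *Aldoc* and *Pdha1* being added, and no call was lost. The deviations of same-numbered libraries from their group means correlated at 0.0776 over genes, so they shared no strong deviation. With 2 libraries per group this value cannot show whether same-numbered libraries were collected or prepared together, and the labels do not state it.

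The median log2 fold change of the 35 genes (0.25) was 0.31 with library size only, 0.44 when scaled to pan-germ cell genes, 0.22 without a filter, 0.22 with DESeq2, and 0.22 to 0.28 leaving out each library. No gene that passed changed sign under these settings. Genes that did not pass turned positive under scaling to pan-germ cell genes: *Slc2a4* (0.17), *Slc2a8* (0.058), *Gpi1* (0.0034), *Gapdh* (0.12), *Pgam1* (0.13), *Eno1* (0.041), *Slc16a1* (0.13) and *Pdhb* (0.069). With library size only, *Slc2a4* (0.042), *Pgam1* (0.0013) and *Slc16a1* (0.0043) did. Leaving out each library gave ranges across 0 for *Slc2a4* (−0.27 to 0.24), *Slc2a8* (−0.37 to 0.10), *Gapdh* (−0.27 to 0.080), *Pgam1* (−0.16 to 0.0052), *Eno2* (−1.14 to 0.14), *Slc16a1* (−0.20 to 0.059), *Pdk1* (−0.024 to 0.064) and *Pdk2* (−0.21 to 0.36). The germ cell scaling moved the median of all genes from 0.01 to 0.20. The cause of the sign changes was not tested. Depth limits *Eno2*, *Pdk4* and *Hk3*.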

Other observations

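Genes of the response to low oxygen outside glycolysis were also measured. Of 17 tested, 3 rose and 4 fell in *Cnot3*-cKO, beside 11.1% and 9.46% of all tested genes, with a median log2 fold change of −0.11. *Hif1a*, the oxygen-labile transcription factor subunit, had 149 and 153 CPM in the controls and 181 and 204 CPM in *Cnot3*-cKO, and rose by 0.35 on the log2 scale (SE 0.09, adjusted p = 0.0144). Its partner *Arnt* had 93.3 and 82.8 CPM against 62.4 and 59.5 CPM and fell (−0.53, SE 0.10, adjusted p = 0.00329). Genes whose proteins mark HIF1A for removal under oxygen were lower in both mutant libraries: *Vhl* at −0.64 (SE 0.10, adjusted p = 0.000934) and the prolyl hydroxylase *Egln1* at −0.55 (SE 0.13, adjusted p = 0.0105). Among known targets, *Vegfa*, a growth factor for vessels, rose by 0.82 on the log2 scale (SE 0.16, adjusted p = 0.00385) and the histone demethylase *Kdm3a* by 0.26 (SE 0.08, adjusted p = 0.0344). *Bnip3*, another target, which was named after its values were seen, fell (−0.47, SE 0.14, adjusted p = 0.0337). These are RNA levels: HIF1A protein was not measured, and its part in these changes was not tested.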
